A study of Saccharomyces cerevisiae with 43 samples.

Results

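The arrays described here follow the yeast transcriptome from the peak of a salt response into the time when cells adapt to the salt. Saccharomyces cerevisiae BY4741, a MATa haploid used widely in the laboratory and deleted for HIS3, LEU2, MET15 and URA3, was grown exponentially in the rich medium YPD and then shifted to 0.7 M NaCl. The course holds 6 of the 43 arrays of the series, all on the first of its 2 array designs: 1 array at 15 min, 2 at 30 min, 2 at 45 min and 1 at 60 min. On every array, cDNA of the salt-treated cells was set against cDNA of untreated cells of the same strain at 0 min, so each value is a log2 ratio of treated over untreated. The members were chosen by these labels alone. The 3 arrays at 45 and 60 min, called late here, were compared with the 2 arrays at 30 min, and the single 15 min array served as the start of the course. The other arrays of the first design entered the fit as their own groups. Most of them were of cells treated with hydrogen peroxide, either naive or after salt pretreatment and recovery. The rest were of cells that had recovered from 60 min in salt and of their mock-treated controls.

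High external salt draws water out of yeast cells and activates the Hog1 kinase, which raises transcription of the genes for glycerol synthesis. Glycerol then builds up inside the cell as a compatible solute, and turgor and growth return. In parallel, many stresses share a response in which stress protection and carbohydrate storage genes rise while ribosomal protein and ribosome assembly genes fall, and this shared response is known to be transient.

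The arrays did not all have the same scale. The SD of the log2 ratios over all genes was 1.24 and 1.14 on the 30 min arrays, 0.90 and 0.88 on the 45 min arrays, 0.80 on the 60 min array and 0.78 on the 15 min array, so the spread of all values narrowed after 30 min. Medians lay between -0.07 and 0.04 on every array. The array codes of the 60 min array and 30 min replicate 1 share a stem, as do those of 45 min replicate 2 and 30 min replicate 2, and the labels do not say what a code marks. Across genes, 45 min replicate 2 correlated with the 30 min arrays at 0.85 and 0.88, 45 min replicate 1 at 0.79 and 0.74 and the 60 min array at 0.71 and 0.63, as a description of arrays that share the untreated reference.

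Between 30 min and the late times, 687 of 4886 genes tested changed at an adjusted p under 0.05 in limma (14.1%), 502 of them upward (10.3%) and 185 downward (3.79%). Most of these calls were movements toward the level of untreated cells. A gene was counted as returned when it was called at 30 min against 0 and called in late minus 30 min with the opposite sign, and 610 genes met this (12.5%). Of these, 448 came up from below 0 (9.17%) and 162 came down from above 0 (3.32%). At 30 min itself 2581 genes were called against 0 (52.8%), 1220 above (25%) and 1361 below (27.9%). Late, 2109 were called against 0 (43.2%), 1037 above (21.2%) and 1072 below (21.9%). In 1626 genes both calls had the same direction (33.3%), while 446 genes called above 0 at 30 min were no longer called late (9.13%), as were 476 called below 0 (9.74%). Of the 448 genes that came up from below, 258 were still called below 0 late, 161 were not called, and 29 were called above 0. Of the 162 genes that came down, 77 were still called above 0, 81 were not called and 4 were called below 0. The lack of a call against 0 does not show a full return.

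These counts depend on the scale of the arrays and on single arrays. When the spread of all 32 arrays was set equal, 127 genes were called in late minus 30 min, 109 higher and 18 lower, and 82 were returned. Of 83 genes chosen by the naming rule and called, 30 stayed called. That scaling takes out any narrowing that all genes share, and whether the narrowing lies in the cells or in the measurement was not tested. Without 30 min replicate 1, 198 genes were called, without 30 min replicate 2, 400, and without the 60 min array, 383, against 476 and 867 without 45 min replicates 1 and 2. With the array code as a fixed block, 518 of 4461 genes were called in a fit that left out 45 min replicate 1. Without the block, the same arrays and genes gave 476. With the code as a random block on all 32 arrays, 1505 of 4886 were called. The 45 min arrays alone differed from 30 min in 383 of 4515 genes (8.48%), 294 higher (6.51%) and 89 lower (1.97%).

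A second class stayed. Held genes were called in the same direction at 30 min and late, were not called in late minus 30 min, and kept more than 0.5 of their 30 min log2 ratio by the same test. There were 229 of them (4.69%), 172 above 0 (3.52%) and 57 below 0 (1.17%). A further 12 genes moved farther from 0 (0.246%), 7 upward (0.143%) and 5 downward (0.102%), and 60 genes were first called late (1.23%), 43 above 0 (0.88%) and 17 below 0 (0.348%). The remaining genes fell in none of these classes. They include genes called at 30 min and late whose difference was neither called nor shown to be small, so the classes leave out many genes that responded.

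The course of each class shows in its median by array. Genes that came up from below 0 had a median log2 ratio of -0.54 on the 15 min array, -1.94 and -1.61 on the 30 min arrays, -0.63 and -0.76 on the 45 min arrays and -0.27 on the 60 min array. Genes that came down started high early, at 1.18 at 15 min, lay at 1.51 and 1.60 at 30 min, and had fallen to 0.28, 0.61 and 0.28 late. Held genes above 0 rose more slowly, from 0.70 at 15 min to 1.44 and 1.31 at 30 min, and lay at 1.71, 1.45 and 1.46 late. Since the 30 min arrays chose the classes, these medians describe the classes and test nothing. In the recovered and the mock-treated cells, the medians of the returned classes lay between -0.15 and 0.17 on every array.

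**Figure D1:**
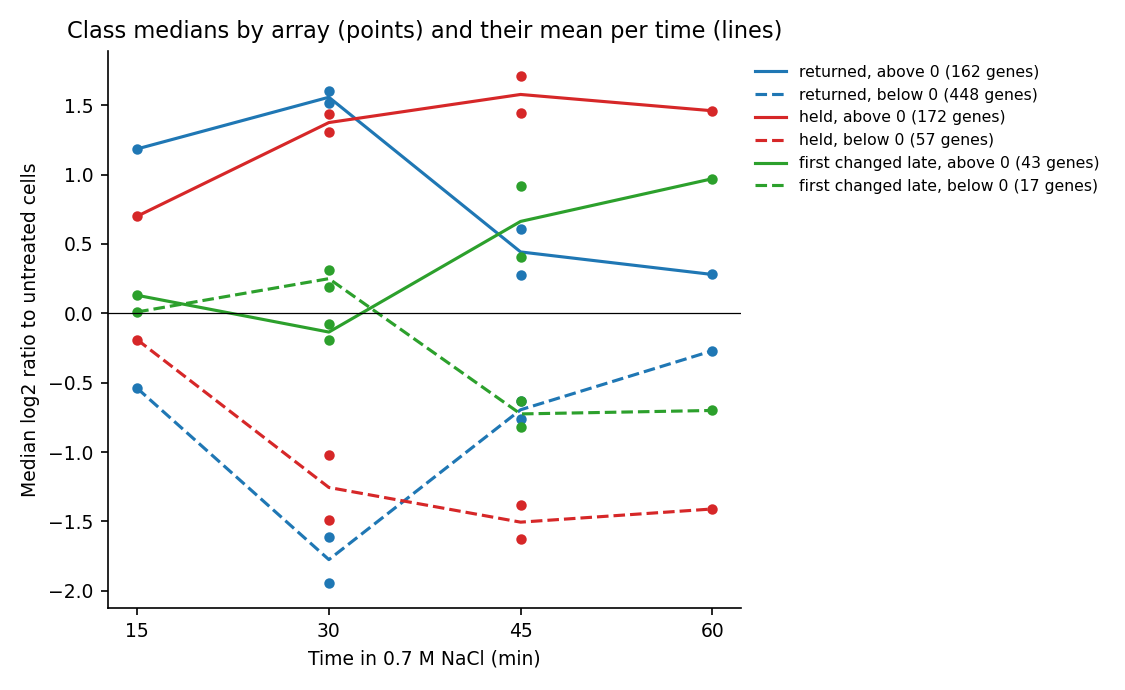
Median log2 ratio of salt-treated over untreated cells (vertical axis) against time in 0.7 M NaCl (horizontal axis, min) for the returned, held and first-changed-late genes, with 1 point per array and lines through the mean per time. The genes that returned from below rise from -1.94 and -1.61 at 30 min to -0.27 at 60 min, while the held genes above 0 stay between 1.31 and 1.71 from 30 min on.

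**Figure D2:**
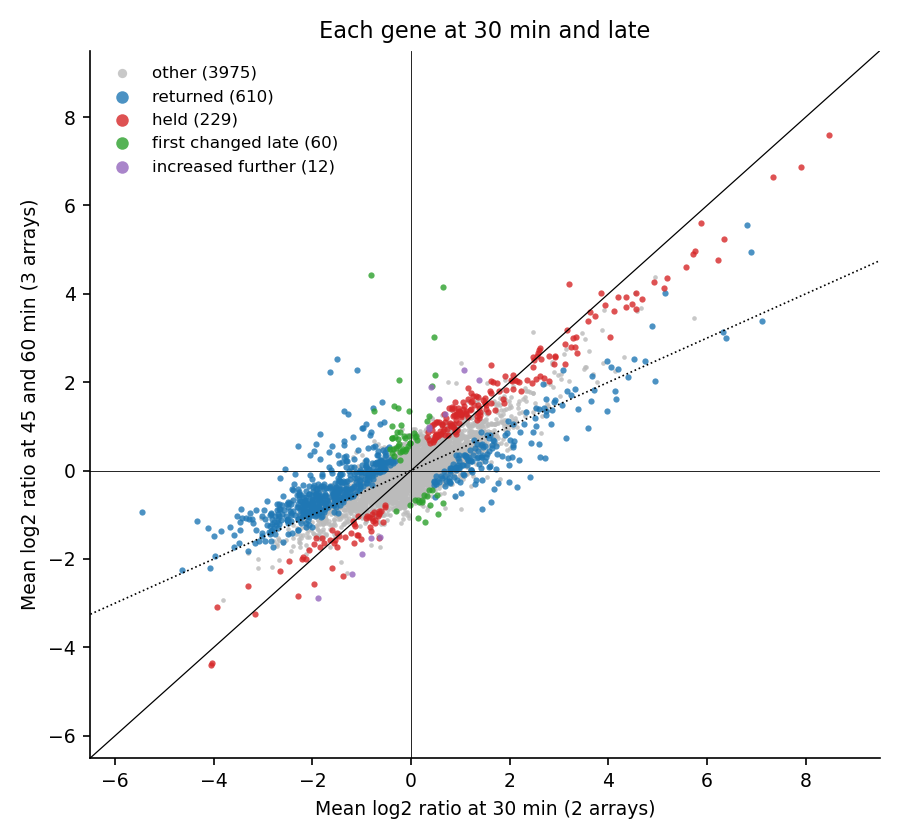
Mean log2 ratio of each of 4886 genes at 30 min (horizontal axis, 2 arrays) and late (vertical axis, 3 arrays), coloured by class, with a solid line where both are equal and a dotted line at 0.5 of the 30 min value. The 610 returned genes lie nearer to 0 late than at 30 min or across it, and the 229 held genes lie along the solid line.

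Genes were also chosen by an array that entered no fit, the 30 min NaCl array of BY4741 on the second array design. Of 899 genes at a log2 ratio of -1 or less there, 366 were called higher late than at 30 min and 4 lower, and 361 were returned genes (40.2%). Their median in the course was -1.50 at 30 min, -0.73 late and -0.56 at 60 min. Of 778 genes at 1 or more there, 131 were called lower late and 6 higher, 135 were returned genes (17.4%) and 114 were held (14.7%). Their median was 1.29 at 30 min, 0.76 late and 0.65 at 60 min. Over all genes tested, 10.3% were called higher late, 3.79% lower, 12.5% were returned and 4.69% held. Choosing genes by this array does not take out the narrower spread of the late arrays, and these 2 sets were not counted with equal spread.

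Among osmolyte and sodium genes, GPD1, GPP2 and ENA1 stayed far above 0 late. GPD1, the glycerol 3-phosphate dehydrogenase that opens glycerol synthesis, had a log2 ratio of 5.10 at 15 min, 5.29 and 5.01 at 30 min, 4.5 and 4.42 at 45 min and 3.12 at 60 min. All 3 late arrays lay below both 30 min arrays, and all stayed far above 0. Over all genes valued on the 5 arrays from 30 min on, 924 of 4382 had every late array below both 30 min arrays (21.1%). In 1202 every late array lay above both (27.4%). GPD1 fell by 1.14 ± 0.32 (SE, n = 2 and 3 arrays, adjusted p = 0.0193), although the difference was 0.18 with equal spread and the call was lost without 30 min replicate 1 (adjusted p = 0.184), 30 min replicate 2 (0.0627) or the 60 min array (0.116). GPP2, the glycerol phosphatase of the next step, had 4.72 at 15 min, 5.82 and 5.69 at 30 min, 5.03 and 5.38 at 45 min and 4.52 at 60 min. Its late arrays also lay below both 30 min arrays, but its difference of -0.78 ± 0.26 missed the threshold (adjusted p = 0.0512) and GPP2 counted as held. DAK1, a dihydroxyacetone kinase named here after its values were seen, was held with 3.43 and 2.89 at 30 min and 3.22, 3.10 and 3.22 late. YPR1, an aldo-keto reductase, was held at lower values.

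Of the 10 tested genes of glycerol synthesis, uptake and retention, 1 was called higher late (ASK10, a regulator of the glycerol channel) and 1 lower (GPD1). The median of the group was 1.43 at 30 min and 1.07 late, beside -0.02 and -0.03 over all genes tested. STL1, the glycerol importer, was not analysed here. ENA1, a sodium-exporting ATPase, rose later than GPD1, with 2.40 at 15 min, 4.75 and 4.19 at 30 min, 4.21 and 3.56 at 45 min and 3.55 at 60 min. Its groups overlapped and it was held, with a difference of -0.70 ± 0.31 (adjusted p = 0.136) that turned to 0.48 with equal spread. ENA2 gave nearly the same values, and since the ENA genes are near-identical tandem copies their signals cannot be told apart. Of 19 sodium and potassium transport genes, 3 were held, 1 was called lower late and 1 higher, and the median was 0.47 at 30 min and 0.48 late. QDR2, a multidrug transporter, was the one called higher, first called late with -0.25 and -0.38 at 30 min and 0.43, 0.09 and 1.04 late (0.84, adjusted p = 0.0128), a call lost without either 30 min array or the 60 min array. HAL5, a kinase that supports potassium uptake, was the one called lower: it had 1.72 and 1.58 at 30 min and 0.59, 0.72 and 0.43 late. HAL5 fell by 1.07 ± 0.24 (adjusted p = 0.00444), a call lost without 30 min replicate 1 (adjusted p = 0.0717) and with equal spread (0.0888). Only 1 of 24 HOG pathway signalling genes was called, PTC2, a phosphatase that acts on Hog1, which came up by 1.06 ± 0.27 from a mean of -1.58 (adjusted p = 0.00967, or 0.131 without 30 min replicate 1 and 0.306 with equal spread).

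General stress genes declined little in number and unequally in size. Of 52 tested, 48 were called above 0 at 30 min and 48 late. In late minus 30 min, 8 were called lower (15.4%, against 3.79% of all genes). Another 21 were held, a class that held 4.69% of all genes. The median of the group by array was 2.33 at 15 min, 3.50 and 3.37 at 30 min, 2.86 and 3.02 at 45 min and 2.02 at 60 min. These genes are measured less precisely than most, with a median SE of the difference of 0.47 against 0.28 for all genes tested. With equal spread the median difference of the group turned from -0.69 to 0.24, with 1 called higher and none lower, so the direction of its late change rests on the scale of the arrays. Without 45 min replicate 2, 13 were called lower, and without 30 min replicate 1 or 2, 4 or 5 were.

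Among single stress genes, CTT1, the cytosolic catalase, had 5.65 at 15 min, 7.01 and 6.78 at 30 min, 4.90 and 5.74 at 45 min and 4.23 at 60 min. Its 3 late arrays lay below both 30 min arrays, as in 21.1% of all genes valued on the 5 arrays. CTT1 fell by 1.94 ± 0.60 (adjusted p = 0.0327), a call that was kept without 45 min replicate 2 and lost without any other late or 30 min array (adjusted p from 0.073 to 0.199). With equal spread the difference of CTT1 was -0.15 (adjusted p = 0.959). HSP42, a small heat-shock protein, had 4.34 and 4.44 at 30 min and 2.12, 3.01 and 1.23 late, and fell by 2.27 ± 0.47 (adjusted p = 0.00229). HSP42 was called without any 1 of the 5 arrays but not with equal spread (-1.15, adjusted p = 0.247). HSP12, a membrane-stabilising stress protein, had 8.02 and 8.94 at 30 min and 7.57 and 7.62 late, with no value on 45 min replicate 2. HSP12 was held, at a late mean of 7.59, the highest of the held genes described here. RTC3, a gene of unclear function, was held with 7.63 and 8.16 at 30 min and 7.12, 7.64 and 5.86 late. HBT1, a protein of polarised growth, was held with 5.93 and 5.84 at 30 min and 5.70, 5.84 and 5.29 late. NQM1, a transaldolase, and MSC1 were held at late means of 5.25 and 4.91. GRE2, a reductase used as a Hog1 reporter, was held with 5.08 and 5.16 at 30 min and 4.34, 4.83 and 3.25 late. As deposited, its difference was -0.98 ± 0.45 (adjusted p = 0.153). Like HSP12, RTC3, HBT1, NQM1 and MSC1, GRE2 had a positive difference with equal spread. The late values of GRE2, HSP12 and MSC1 all lay below both 30 min arrays, although these genes counted as held.

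Of 21 osmotic reporter genes, 12 were held, a class that held 4.69% of all genes. Another 2 were called lower late (9.52%, against 3.79% of all genes) and none higher. Their median was 4.12 and 3.69 on the 30 min arrays and 4.04, 3.73 and 3.25 late, and the median difference of -0.81 turned to 0.51 with equal spread, where none was called. The 2 that came down were HXT5, a hexose transporter of slow growth, and ALD6, the acetaldehyde dehydrogenase of acetate synthesis. HXT5 had 6.83 and 6.77 at 30 min and 5.67, 5.46 and 5.54 late, and fell by 1.24 ± 0.27 (adjusted p = 0.00444), but the difference was 0.55 with equal spread and the call was lost without 30 min replicate 1 (adjusted p = 0.0598). ALD6 went below 0 on 2 of 3 late arrays, with 1.22 and 2.15 at 30 min and -0.20, 0.62 and -1.70 late, and its call was lost without 30 min replicate 2 (adjusted p = 0.114) and with equal spread (0.0807).

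The 6 genes taken next had the largest falls among returned genes with a gene symbol and a value on every array. FMP48 had 6.24 at 15 min, 7.12 and 7.12 at 30 min, 2.94 and 3.84 at 45 min and 3.37 at 60 min, and it fell by 3.74 ± 0.74 (adjusted p = 0.00222). MPC3, a subunit of the mitochondrial pyruvate carrier, had 5.83 and 6.95 at 30 min and 2.85, 3.86 and 2.26 late. PRM10, a membrane protein named for its pheromone response, had 4.81 and 5.07 at 30 min and 1.61, 1.98 and 2.52 late. That the late arrays lay below both 30 min arrays was a condition for choosing these 6 genes. CIN5, a bZIP transcription factor of salt tolerance, was the most precisely measured of the 6. It had 2.39 at 15 min, 3.56 and 3.61 at 30 min, 0.63 and 1.03 at 45 min and 1.23 at 60 min, and it fell by 2.62 ± 0.29 (adjusted p = 4.34e-06). CIN5 remained called without any 1 array and with equal spread (-1.66, adjusted p = 0.0391). The other 5 were not called with equal spread: FMP48 had -1.87, MPC3 -1.77, PRM10 -1.58, RGI1 -1.46 and MGA1 -1.52 (adjusted p from 0.201 to 0.6). RGI1, a respiratory growth gene, fell by 2.53 ± 0.61 (adjusted p = 0.00747), and MGA1, a heat-shock-factor-like regulator, by 2.40 ± 0.70 (adjusted p = 0.0395). Single arrays decided some of these calls: MPC3 was lost without 30 min replicate 2 (adjusted p = 0.0946), RGI1 without 30 min replicate 1 (0.0968), and MGA1 without any of the 5 arrays in turn (from 0.0523 to 0.284).

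CIN5 and MGA1 belong to a list of 29 stress transcription factors, of which 8 were called lower late (27.6%, against 3.79% of all genes) and 2 higher. The group's median was 0.65 at 30 min and 0.34 late. The others that came down from above were MSN2, GIS1, NRG1 and NRG2. MSN2, an activator of the general stress response picked after its values were seen, had 1.57 at 15 min, 1.60 and 1.70 at 30 min and 0.27 and 0.73 at 45 min, with no value at 60 min, and it fell by 1.15 ± 0.28 (adjusted p = 0.00787). MIG1 and MIG2, glucose repressors, were first changed late. The 2 factors that came up were TOD6, a repressor of ribosome assembly genes, and GCN4. The count of factors called lower was 1 without 30 min replicate 2 or without 45 min replicate 1, 2 without 30 min replicate 1, 4 without the 60 min array and 1 with equal spread.

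Storage carbohydrate genes came down in part. Of 22 trehalose and glycogen genes, 4 were called lower late (18.2%, against 3.79% of all genes) and none was called higher. A further 6 were held, a class that held 4.69% of all genes. The median went from 2.67 at 30 min to 1.66 late. The count was 2 without either 30 min array, 7 with the 6 NaCl arrays alone and 0 with equal spread. GLC3, the glycogen branching enzyme, had 3.76 and 3.67 at 30 min and 1.71, 2.27 and 1.51 late, and fell by 1.89 ± 0.36 (adjusted p = 0.00113). PIG2, a glycogen phosphatase targeting subunit, was not called against 0 late (adjusted p = 0.303). It had 2.21 and 2.15 at 30 min and 0.02, 0.56 and 0.15 late, and fell by 1.94 ± 0.29 (adjusted p = 0.000114). GLC3 and PIG2 were called without any 1 array and not with equal spread (adjusted p = 0.404 and 0.0549). TPS1, the trehalose phosphate synthase, was held with 3.39 and 3.32 at 30 min and 2.83, 3.37 and 1.81 late. Its difference was -0.69 ± 0.37 (adjusted p = 0.226) and turned to 0.17 with equal spread. GPH1, glycogen phosphorylase, was held and was below 0 on the 15 min array: it had -0.53 at 15 min, 2.70 and 2.53 at 30 min and 3.03, 2.89 and 2.41 late. HXT1, the low-affinity glucose transporter, had 3.01 at 15 min, 4.30 and 4.09 at 30 min, 2.61 and 2.54 at 45 min and 1.74 at 60 min. HXT1 fell by 1.90 ± 0.25 (adjusted p = 3.24e-05), was called without any 1 array, and had -0.82 with equal spread (adjusted p = 0.175). HXT1, HXT5 and GAL2 were the 3 of 14 hexose transport and sensing genes that came down (21.4%, against 3.79% of all genes called lower).

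**Figure D3:**
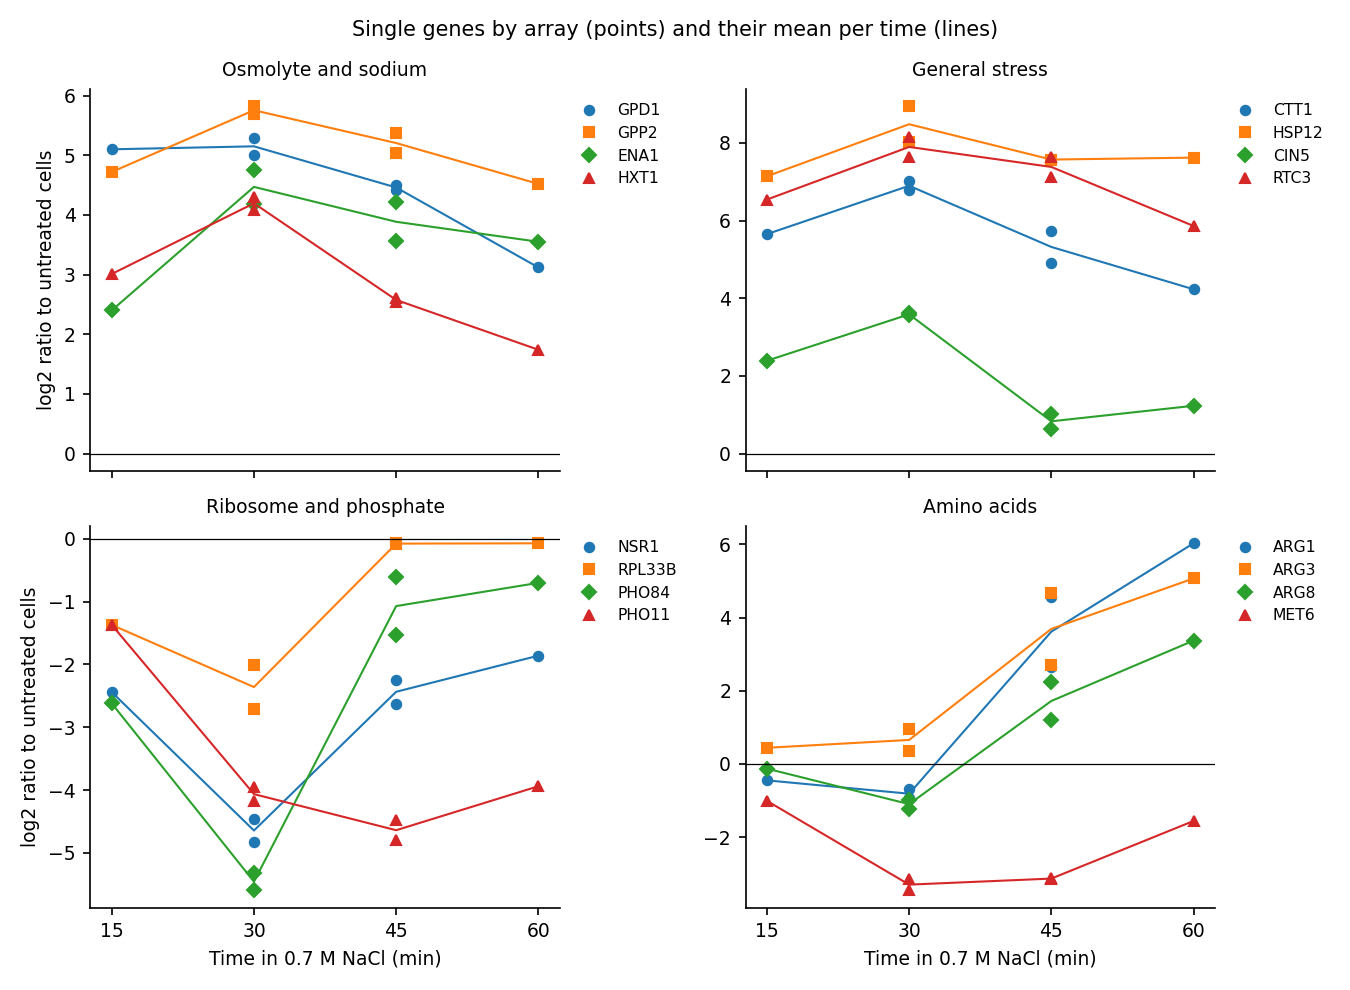
Log2 ratio of treated over untreated cells (vertical axis) against time in 0.7 M NaCl (horizontal axis, min) for 16 genes, with 1 point per array and lines through the mean per time. CIN5 and HXT1 fall between 30 and 45 min while HSP12 and RTC3 stay above 5, PHO84 and NSR1 rise from below -4 toward 0 while PHO11 stays near -4, and ARG1 and ARG3 leave the range around 0 after 30 min.

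Ribosomal protein genes came up in large number. Of 132 cytosolic ribosomal protein genes, 130 were called below 0 at 30 min and 95 late. In late minus 30 min, 85 were called higher (64.4%, against 10.3% of all genes) and none lower, and no member was held. The median by array was -0.17 at 15 min, -2.12 and -1.50 at 30 min, -0.80 and -0.95 at 45 min and -0.24 at 60 min, lowest on both 30 min arrays. RPL33B had -2.71 and -2.01 at 30 min and -0.08, -0.07 and -0.07 late, and rose by 2.29 ± 0.35 (adjusted p = 0.000121). RPS26B had -3.69 and -2.61 at 30 min and -1.03, -1.25 and -0.41 late, and RPL27B had -2.65 and -2.08 at 30 min and -0.44, -0.59 and 0.13 late. All of these late arrays lay above both 30 min arrays, and the 3 genes were called without any 1 array, RPL33B and RPL27B also with equal spread (adjusted p = 0.0022 and 0.0189, and 0.0535 for RPS26B). RPL3, a core protein of the large subunit, did not pass: it had 0.49 at 15 min, -1.63 and -1.36 at 30 min and -1.20, -1.45 and -0.38 late, a difference of 0.48 ± 0.34 (adjusted p = 0.362). Most of these genes exist as near-identical pairs whose signals may mix on a spotted array. Over all genes valued on the 5 arrays, 27.4% had every late array above both 30 min arrays.

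The number of ribosomal protein genes called depended on single arrays. Without 30 min replicate 1, which has the lower values of the 30 min pair, 6 of 135 were called higher, against 78 of 132 without 30 min replicate 2. Without the 60 min array 40 of 131 were called, and with equal spread 12 of 132. The median difference kept its direction with equal spread, at 0.69 against 1.12 as deposited. Within arrays that share a code, the median was 1.85 higher at 60 min than on 30 min replicate 1, and 0.48 higher on 45 min replicate 2 than on 30 min replicate 2.

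Ribosome assembly genes also came up. Of 126 tested, 123 were called below 0 at 30 min and 105 late, 69 were called higher late (54.8%) and none lower. The median was -0.88 at 15 min, -2.60 and -1.97 at 30 min, -1.08 and -1.02 at 45 min and -1.01 at 60 min. NOG1, a GTPase of large-subunit assembly, had -2.10 at 15 min, -4.31 and -4.37 at 30 min and -1.08, -1.31 and -1.01 late, and it rose by 3.21 ± 0.39 (adjusted p = 8.97e-06). SYO1, the chaperone that imports Rpl5 and Rpl11, rose by 2.81 ± 0.35 from a mean of -4.12 (adjusted p = 1.25e-05). BRX1, an assembly factor of the large subunit, rose by 2.57 ± 0.32 from -3.45 (adjusted p = 1.25e-05). NSR1, the yeast nucleolin, stayed far below 0 on every late array, with -2.44 at 15 min, -4.83 and -4.46 at 30 min, -2.24 and -2.63 at 45 min and -1.86 at 60 min, and rose by 2.40 ± 0.45 (adjusted p = 0.00096). NOG1, SYO1, BRX1 and NSR1 were called without any 1 array, and the first 3 also with equal spread (adjusted p = 0.00194, 0.00409 and 0.00314, and 0.125 for NSR1). For the group, 20 of 128 were called without 30 min replicate 1 and 13 of 126 with equal spread.

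Genes of the polymerases that make rRNA and tRNA rose in part. All 21 tested subunits of RNA polymerases I and III were called below 0 at 30 min and 14 late. In late minus 30 min, 9 were called higher (42.9%, against 10.3% of all genes) and none lower. RPA135, the second largest subunit of RNA polymerase I, had -3.57 and -3.00 at 30 min and -1.18, -1.62 and -0.47 late, and rose by 2.19 ± 0.31 (adjusted p = 6.63e-05). Of 52 translation factor and tRNA synthetase genes, 49 were called below 0 at 30 min and 37 late, and 13 were called higher late (25%). Both counts rested on the scale and on single arrays. With equal spread, 1 gene of each group was called, RPA135 being the polymerase subunit. Without 30 min replicate 1, 1 polymerase subunit and 2 translation genes were called. Without 30 min replicate 2, 5 and 7 were. Without the 60 min array, 7 and 2 were. Few of the 62 mitochondrial ribosomal protein genes were called: 10 were called above and 10 below 0 at 30 min, and 1 was called higher late, MRPL13 (0.73 ± 0.22, adjusted p = 0.0262, lost without either 30 min array or the 60 min array, and with equal spread).

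**Figure D4:**
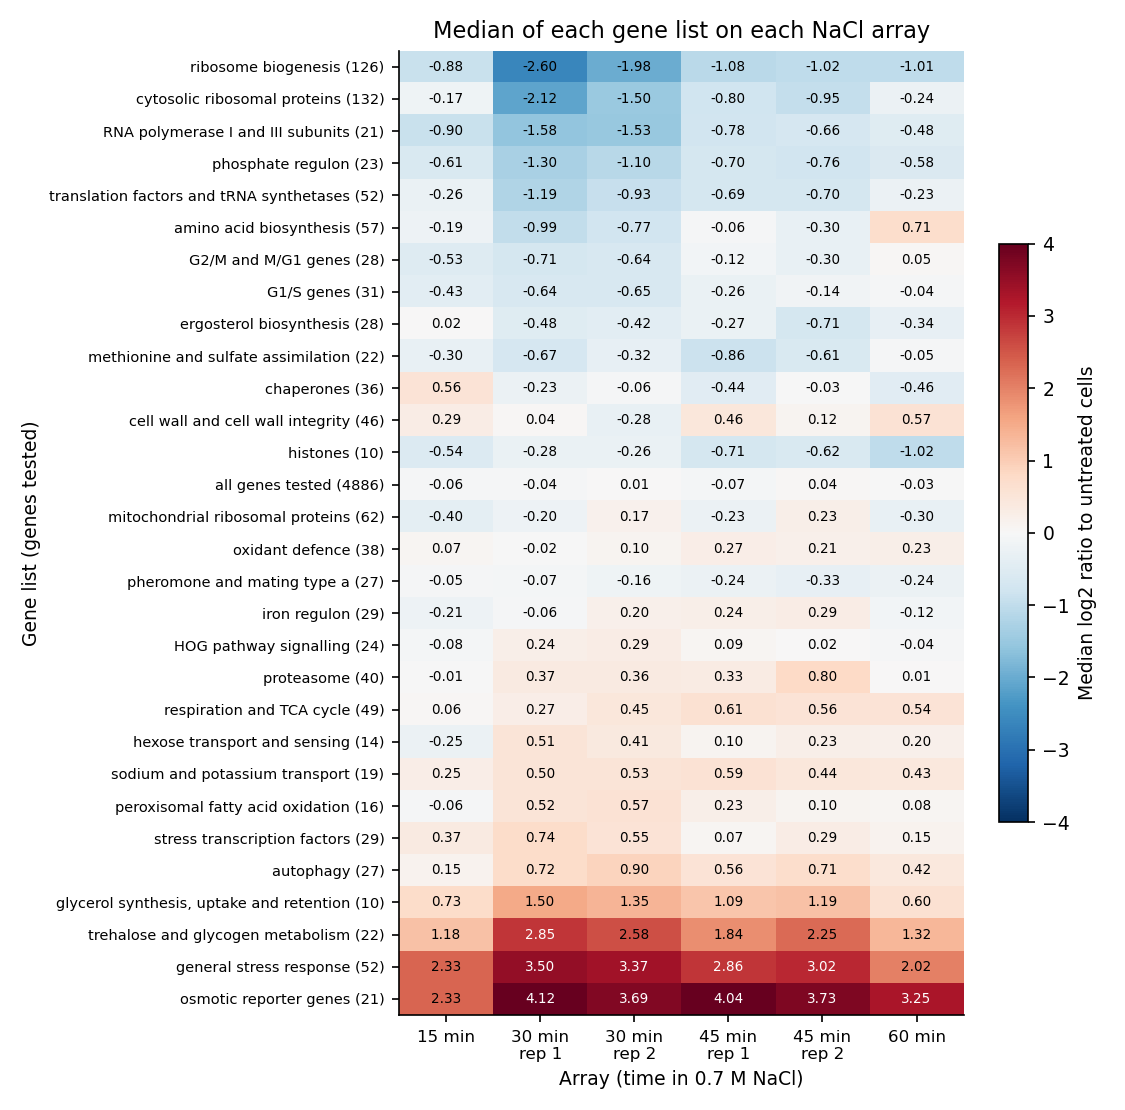
Median log2 ratio of treated over untreated cells for each gene list and for all genes tested (rows, with the number of genes tested) on each of the 6 NaCl arrays (columns), printed and coloured on a common scale from -4 to 4. Cytosolic ribosomal proteins go from -2.12 and -1.50 at 30 min to -0.24 at 60 min, amino acid biosynthesis from -0.99 and -0.77 to 0.71, and osmotic reporter genes stay at 3.25 or more from 30 min on.

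Amino acid synthesis genes came up, and some of them were called above 0 late. Of 57 tested, 37 were called below 0 and 1 above 0 at 30 min, and 12 below and 20 above 0 late. In late minus 30 min, 29 were called higher (50.9%) and none lower: 20 of these were returned genes and 9 were first called late. The median by array was -0.19 at 15 min, -0.99 and -0.77 at 30 min, -0.06 and -0.30 at 45 min and 0.71 at 60 min. The 60 min array was thus the only one of the 6 with a median above 0. Without 30 min replicate 1, 20 of 58 were called higher, without the 60 min array 22 of 55, with the 6 NaCl arrays alone 19 of 57, and with equal spread 18 of 57. The number first called late was 3 without the 60 min array. Within arrays that share a code, the median was 1.77 higher at 60 min than on 30 min replicate 1 and 0.43 higher on 45 min replicate 2 than on 30 min replicate 2.

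The genes of this list with the largest called rises served arginine synthesis. ARG1, argininosuccinate synthetase, had -0.45 at 15 min, -0.69 and -0.94 at 30 min, 4.57 and 2.66 at 45 min and 6.03 at 60 min. Every late array lay over 3 log2 units above both 30 min arrays, and 45 min replicate 2 was the lowest of the 3. ARG1 rose by 5.24 ± 0.61 (adjusted p = 8.97e-06). ARG3, ornithine carbamoyltransferase, had 0.44 at 15 min, 0.96 and 0.35 at 30 min, 4.68 and 2.70 at 45 min and 5.07 at 60 min, and rose by 3.50 ± 0.40 (adjusted p = 7.78e-06). ARG4, argininosuccinate lyase, had 0.90 and 0.04 at 30 min and 3.09, 2.0 and 3.95 late, and rose by 2.54 ± 0.35 (adjusted p = 5.23e-05). The same order of the 3 late arrays, 45 min replicate 2 lowest and 60 min highest, held in each of the 3 genes. ARG8, acetylornithine aminotransferase, had been below 0, with -0.98 and -1.22 at 30 min and 2.25, 1.19 and 3.37 late. ARG8 rose by 3.37 ± 0.40 (adjusted p = 8.97e-06). All 4 genes were called without any 1 array and with equal spread, where adjusted p ran up to 0.00652.

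Other branches showed the same direction at smaller size. Beside the arginine genes, those first called late were LYS2, HIS5, ARO3, TRP2, TRP4 and TRP5, of lysine, histidine and aromatic amino acid synthesis. LYS2, the aminoadipate reductase, had -0.68 and -0.83 at 30 min and 1.02, -0.01 and 3.04 late. ARO3, which opens the aromatic pathway, had -0.35 and -0.17 at 30 min and 1.28, 0.82 and 2.18 late. GCN4, the activator of amino acid synthesis genes, had -0.48 at 15 min, -1.0 and -1.63 at 30 min, 0.47 and -0.30 at 45 min and 0.83 at 60 min. All late arrays of GCN4 lay above both 30 min arrays, as in 27.4% of all genes valued on the 5 arrays. GCN4 mRNA rose by 1.65 ± 0.29 (adjusted p = 0.000532). GCN4 is controlled mainly in translation, which these arrays do not measure. ADH5, an alcohol dehydrogenase outside the list, ranked after ARG1, ARG3 and ARG4 by size among genes first called late, with -0.17 and -0.34 at 30 min and 2.25, 0.70 and 3.23 late (2.31 ± 0.42, adjusted p = 0.000992). LYS2, ARO3 and SHM2 were picked after their values were seen. The amino acid genes held below 0 were GDH1, SHM1 and SHM2, of glutamate and one-carbon metabolism. SHM2, the cytosolic serine hydroxymethyltransferase, had -2.24 and -1.88 at 30 min and -1.63, -2.21 and -1.53 late.

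**Figure D5:**
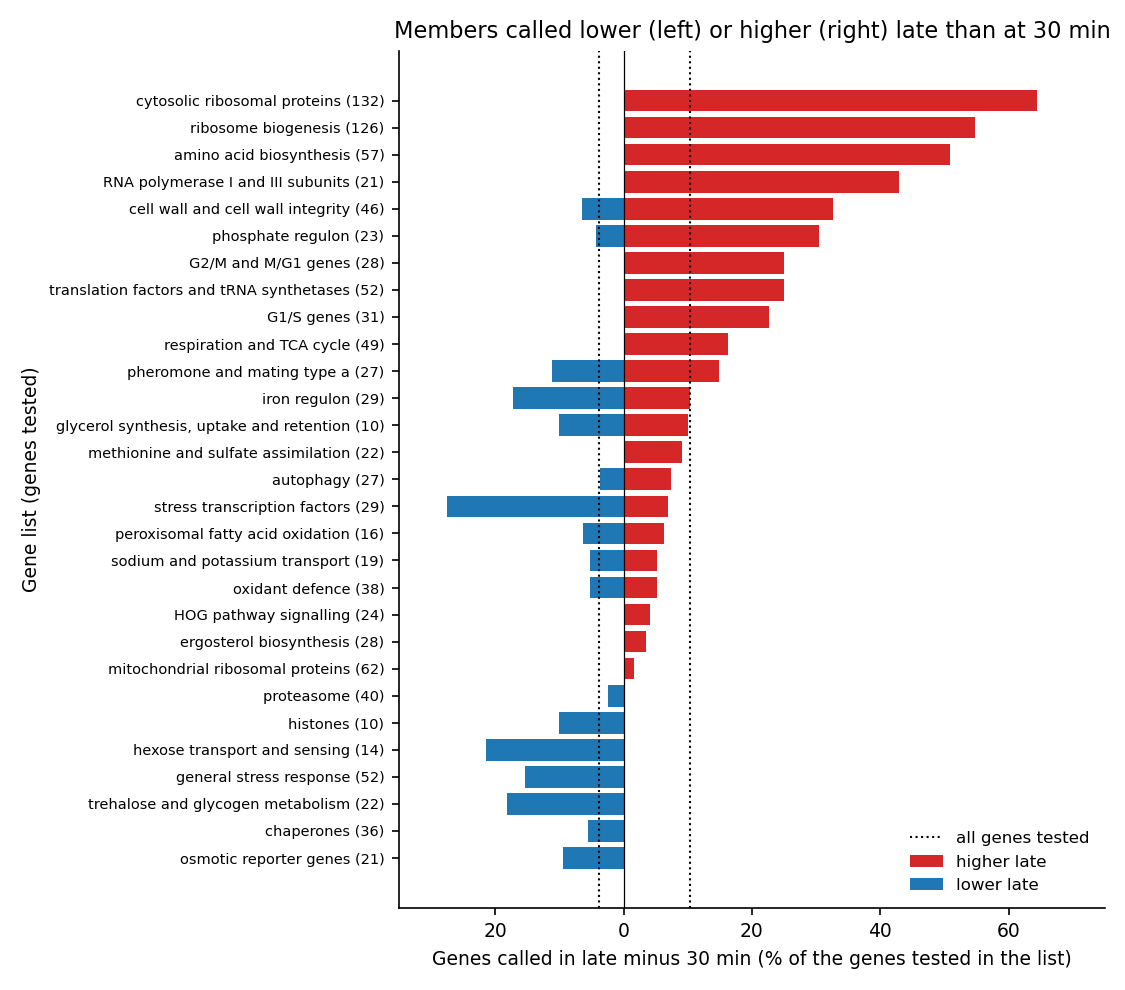
Share of the tested members of each gene list (rows) called lower (left) or higher (right) late than at 30 min, in percent, with dotted lines at the shares over all genes tested, 3.79% and 10.3%. Cytosolic ribosomal proteins (64.4%), ribosome biogenesis (54.8%) and amino acid biosynthesis (50.9%) reach farthest to the right and stress transcription factors (27.6%) farthest to the left.

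Phosphate genes were divided between staying and returning, while few sulfur genes were called as returning. Of 22 methionine and sulfate assimilation genes, 10 were called below 0 at 30 min and 10 late, and 5 were held below 0. In late minus 30 min, 2 were called higher (CYS4 and MET22), which is 9.09% against 10.3% of all genes. With the 6 NaCl arrays alone or with equal spread, 0 were called higher. MET6, methionine synthase, had -1.01 at 15 min, -3.46 and -3.14 at 30 min, -3.14 and -3.13 at 45 min and -1.56 at 60 min. Its groups overlapped, and the 60 min array stood above all the others from 30 min on. The difference of MET6 was 0.69 ± 0.40 (adjusted p = 0.263), and -0.10 with equal spread. SAM1, an S-adenosylmethionine synthetase, was held with -3.48 and -2.83 at 30 min and -3.95, -3.56 and -2.20 late. MMP1, the S-methylmethionine permease, was held with -2.53 and -2.04 at 30 min and -3.71, -2.79 and -1.99 late.

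PHO84, the high-affinity phosphate transporter, made the largest rise among returned genes. It had -2.62 at 15 min, -5.60 and -5.32 at 30 min, -0.61 and -1.53 at 45 min and -0.70 at 60 min. PHO84 rose by 4.51 ± 0.32 (adjusted p = 3.87e-09), and the call remained without any 1 array and with equal spread. Secreted acid phosphatases on the same gene list differed in class. PHO3, a phosphatase of the same gene family, returned in part, with -3.18 and -3.16 at 30 min and -1.68, -2.33 and -0.92 late, and rose by 1.53 ± 0.36 (adjusted p = 0.00593), a call lost without 30 min replicate 1 and with equal spread (0.76, adjusted p = 0.368). PHO11, PHO12 and PHO5 were held. PHO11 had -1.37 at 15 min, -4.18 and -3.95 at 30 min and -4.80, -4.48 and -3.94 late, with a difference of -0.34 ± 0.37 (adjusted p = 0.585) and an interval from -1.11 to 0.42 (95%). PHO12 gave nearly the same values, and the pair is near-identical in sequence, so it counts as 1 measurement. PHO5, the main repressible acid phosphatase, named after its values were seen, was held with -2.13 and -2.11 at 30 min and -1.95, -2.47 and -1.59 late. With equal spread PHO11 and PHO12 were called lower late (-1.37 and -1.35, adjusted p = 0.0339 and 0.0166). Over the 23 tested genes of this phosphate list, 7 were called higher late (30.4%), 1 lower (PHM8) and 4 were held below 0. Among those that rose were VTC1, VTC3 and VTC4, of the polyphosphate polymerase. The count called higher was 2 without 30 min replicate 1 and 1 with equal spread.

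Some cell wall genes came up from below 0 and some were first called late. Of 46 tested, 15 were called higher late (32.6%) and 3 lower. Of the 46 genes, 11 came up from below 0, 6 were held above 0 and 4 were first called late, a class that held 1.23% of all genes. Without the 60 min array or with equal spread, 2 were first called late. EXG1, an exoglucanase of the wall, had -1.78 at 15 min, -1.63 and -2.21 at 30 min and 0.89, -0.56 and 1.48 late, and rose by 2.52 ± 0.41 (adjusted p = 0.000287). GAS1, a glucanosyltransferase, had -1.87 and -2.16 at 30 min and -0.12, -0.79 and 0.36 late, and rose by 1.83 ± 0.22 (adjusted p = 1.15e-05). CIS3, a wall mannoprotein, rose by 1.70 ± 0.23 from a mean of -1.81 (adjusted p = 3.08e-05). The calls of EXG1, GAS1 and CIS3 held without any 1 array and with equal spread.

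The cell wall genes first called late were CCW14, CRH1, HSP150 and RLM1, which encode wall proteins, a transglycosylase of the wall and the transcription factor of the cell wall integrity pathway. CCW14 had -0.38 and -0.27 at 30 min and 1.03, 0.30 and 0.97 late (1.09 ± 0.20, adjusted p = 0.000761). RLM1 had -0.05 and -0.67 at 30 min and 0.40, 0.23 and 0.86 late (0.86 ± 0.28, adjusted p = 0.0449). Its late arrays lay above both 30 min arrays, as in 27.4% of all genes valued on the 5 arrays. SLT2, the kinase upstream of Rlm1, was held with 1.17 and 0.76 at 30 min and 1.45, 0.77 and 1.72 late. RLM1, CCW14 and SLT2 were picked after their values were seen. PRM5, a membrane protein gene that responds to pheromone and to wall stress, moved farther from 0: it had 0.09 at 15 min, 0.55 and 0.27 at 30 min, 2.05 and 1.73 at 45 min and 1.92 at 60 min. PRM5 rose by 1.49 ± 0.22 (adjusted p = 9.31e-05). Of the list, 7 were called higher without 30 min replicate 2, 9 without 30 min replicate 1, 8 without the 60 min array and 7 with equal spread.

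The other genes that moved farther from 0 were few. OPI3, a methyltransferase of phosphatidylcholine synthesis, had 1.10 and 1.03 at 30 min and 2.47, 2.30 and 2.06 late, and rose by 1.21 ± 0.21 (adjusted p = 0.000623). PAN6, pantothenate synthase, had 0.10 at 15 min, -2.19 and -1.58 at 30 min and -3.14, -2.32 and -3.17 late, and fell by 0.99 ± 0.22 (adjusted p = 0.00418). FET4, a low-affinity iron transporter, had -1.62 and -0.78 at 30 min and -2.65, -2.10 and -2.28 late, and fell by 1.14 ± 0.33 (adjusted p = 0.0218). OPI3 was called without any 1 array. PAN6 was lost without 30 min replicate 2 (-0.69, adjusted p = 0.124) and FET4 without 30 min replicate 2 (-0.72, 0.323), 45 min replicate 1 (0.0812) or the 60 min array (0.0502).

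The 17 genes first called late below 0 had a median difference of -0.89. FUS1, a cell fusion protein of mating, had 0.55 and 0.56 at 30 min and -1.17, -0.95 and -0.81 late, and fell by 1.53 ± 0.39 (adjusted p = 0.0104). MIG2 had 0.20 and 0.35 at 30 min and -1.60, -0.96 and -0.92 late, and fell by 1.44 ± 0.39 (adjusted p = 0.0162). REG2, a regulatory subunit of protein phosphatase 1, fell by 1.38 ± 0.41 (adjusted p = 0.025), and AGC1, a mitochondrial aspartate-glutamate carrier, by 1.21 ± 0.36 (adjusted p = 0.0269). All of these genes were chosen from those whose late arrays lay below both 30 min arrays. AGC1 had already been at -1.57 on the 15 min array, before 0.19 and 0.08 at 30 min. Each of these calls was lost without 30 min replicate 1 (adjusted p = 0.0917 for FUS1, 0.0996 for MIG2, 0.266 for REG2 and 0.176 for AGC1). FUS1, MIG2 and AGC1 were also lost without 30 min replicate 2 (0.07, 0.111 and 0.108), MIG2 and AGC1 without 45 min replicate 1 (0.0702 and 0.145), and REG2 without 45 min replicate 2 (0.0549) or the 60 min array (0.0638). With equal spread AGC1 was called (-1.13, adjusted p = 0.0411) and FUS1, MIG2 and REG2 were not (0.226, 0.162 and 0.0614). On the second design's 30 min array MIG2 was at -1.57 and REG2 at 2.0, and both lay far from their 30 min values on the first design.

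Cell cycle genes returned in part. Of 31 genes of the G1/S transition, 7 were called higher late (22.6%) and none lower, and of 28 genes of G2/M and M/G1, 7 were called higher (25%) and none lower. RNR1, the large subunit of ribonucleotide reductase, had -1.23 at 15 min, -1.08 and -1.65 at 30 min and 0.84, 0.12 and 1.04 late, and rose by 2.03 ± 0.29 (adjusted p = 7.67e-05). CLB1, a mitotic cyclin, had -1.74 and -1.58 at 30 min and 0.17, -0.20 and 0.30 late, and rose by 1.75 ± 0.34 (adjusted p = 0.00159). CLN2, a G1 cyclin, had -1.43 at 15 min, -0.83 and -0.87 at 30 min and 0.08, -0.08 and 0.10 late. CLN2 rose by 0.88 ± 0.30 (adjusted p = 0.0489), a call at the threshold that was lost without any of the 5 arrays in turn (0.0512 to 0.198), while RNR1 and CLB1 kept theirs. Without 30 min replicate 2 or without the 60 min array, 3 genes of each list were called higher, and without 30 min replicate 1, 4 of each. Without 45 min replicate 1, 4 genes of G1/S and 5 of G2/M and M/G1 were called, and with equal spread 2 and 4. Of 10 histone genes, 4 were called below 0 at 30 min and 8 late, beside 27.9% and 21.9% of all genes. The 30 min mean rests on 2 arrays and the late mean on 3, so these counts are not matched. In late minus 30 min, 1 of 10 was called lower (10%, against 3.79% of all genes). Their median was -0.28 and -0.26 on the 30 min arrays and -0.71, -0.62 and -1.02 late. HTA1, a copy of histone H2A, was the member whose difference was called, with -0.74 and -0.52 at 30 min and -1.38, -1.34 and -1.80 late (-0.88 ± 0.28, adjusted p = 0.0362). That call was kept without 45 min replicate 2 and lost without any other array of the comparison (adjusted p from 0.0541 to 0.218). With equal spread it was kept (-1.05, adjusted p = 0.0455).

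The remaining groups moved little or both ways. Of 49 respiration and TCA cycle genes, 8 were called higher late (16.3%) and none lower, and 34 were called above 0 late against 24 at 30 min. ACO1, the mitochondrial aconitase of the TCA cycle, had -0.98 and -1.16 at 30 min and 0.60, -0.38 and 1.17 late, and rose by 1.53 ± 0.29 (adjusted p = 0.00124, and 0.111 with equal spread). With equal spread no respiration gene was called, and 2 were without 30 min replicate 1 and 5 without 30 min replicate 2. Of 29 iron regulon genes, 5 were called lower (17.2%) and 3 higher late (10.3%, the share over all genes). No iron gene was called lower without 30 min replicate 2, 2 were without the 60 min array, and with equal spread none was called in either direction. FIT1, a wall mannoprotein that retains iron carriers, had 0.71 and 2.18 at 30 min and -1.01, 0.09 and -1.67 late, and its call was lost without 30 min replicate 2 (adjusted p = 0.101). Of 27 pheromone and mating genes, 4 were called higher late and 3 lower. MFA2, which encodes the a-factor pheromone, had -3.19 and -2.84 at 30 min and -1.11, -1.63 and -1.49 late, and rose by 1.60 ± 0.29 (adjusted p = 0.000728), a call that was lost with equal spread (0.83, adjusted p = 0.326). Among 38 oxidant defence genes 2 were called in each direction, among 36 chaperone genes 2 were called lower, and among 40 proteasome genes 1 was. Of 27 autophagy genes 2 were called higher and 1 lower, of 16 peroxisomal genes 1 each way, and of 28 ergosterol genes 1 higher.

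The single 15 min array allows values and no test. On it, 467 of 4938 genes lay at least 1 log2 unit above both 30 min arrays (9.46%) and 332 at least 1 below both (6.72%). ATG41, an autophagy factor, went through 0 in both directions: it had 1.60 at 15 min, -1.55 and -1.45 at 30 min and 3.13, 1.82 and 2.62 late. ATG41 rose by 4.02 ± 0.56 between 30 min and late (adjusted p = 5.6e-05), was called without any 1 array, and had a value of -0.88 on the 30 min array of the second design. ZPR1, a chaperone of the elongation factor eEF1A, had 1.60 at 15 min, -1.38 and -1.22 at 30 min and -1.30, -0.95 and -1.23 late. HBT1, held later, had 1.08 at 15 min before about 5.9 at 30 min, the largest gap in this direction. SIP18, a desiccation protein, had 0.36 at 15 min, 3.55 and 3.08 at 30 min and 2.81, 2.74 and 2.86 late. ZPR1, SIP18 and, among the storage genes, GPH1 were named after these values were seen.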

How the data were processed

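The authors deposited 1 log2 ratio per gene and array from spotted 2-colour arrays, with amino-allyl cDNA labelled by Oyster dyes, per the labels' protocols. Base 2 and the direction, treated over untreated, were inferred from the values, and no dye was swapped: a dye effect that stays constant is part of each ratio but not of a difference between times. Details of scanning and normalization were not given in the sources used here, and without intensities precision is limited by how many arrays there are.

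Of 5604 features, 5457 locus tags matched a RefSeq gene table used for symbols, and 4886 were tested, those with values on both 30 min arrays and at least 2 late arrays. Among these, 531 lacked a value on some NaCl array; missing values were not filled in. Group means of all 32 arrays of the first design were fitted with limma 3.58.1 (lmFit, eBayes) in R 4.3.3, so the spread per gene is shared by all groups. Most of these arrays are of cells treated with hydrogen peroxide, so that spread comes largely from arrays outside the salt course. P-values were adjusted by Benjamini-Hochberg over all genes tested, 2-sided, and the threshold was 0.05. The labels do not say whether replicates are separate cultures, so p-values measure the spread between arrays, which may be technical. The root mean square SD between the 2 arrays was 0.287 at 30 min and 0.328 at 45 min.

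Named genes were the largest differences per class, among genes with a symbol, values on all 6 arrays and late arrays on the called side of both 30 min arrays; the highest and lowest held genes; up to 3 called members of each of 29 lists, some of which lack a value or overlap between groups; and 12 genes named whatever their values. Others were picked after their values were seen. Some genes the rule picks are not reported here. The comparisons, lists and rules were chosen with earlier results of these data known. The fit was tested on simulated data with independent noise, of the same size per gene on every array. That test cannot show how unequal scale or shared deviations between arrays affect the calls. Alternatives were the 6 NaCl arrays alone, centring, equal spread, stricter filters, robust moderation, array-code blocks and leaving out each array. A search of promoters for motifs was not run.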

Additional observations from a re-analysis of the deposited data

How the results depend on the processing

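With the spread of all 32 arrays set equal, 127 genes were called in late minus 30 min, 82 returned, 36 first changed late, 55 called in 45 min minus 30 min (383 of 4515 as deposited, 8.48%) and 1688 at 30 min. The log2 differences that changed sign there were those of RTC3 (1.01), HBT1 (1.28), NQM1 (0.51), GPP2 (0.73), MSC1 (0.68), MET6 (-0.1), GPD1 (0.18), HXT5 (0.55), ENA1 (0.48), HSP12 (1.47), TPS1 (0.17) and GRE2 (0.34). Their high or low 30 min values were scaled down most, by construction. The array code as a random block gave 1505 called, 1223 returned, 159 first changed late and 763 in 45 min minus 30 min; the cause was not tested. The 6 NaCl arrays alone gave 33 first changed late. Holding genes to 0.7 of the 30 min value gave 58 held, and keeping genes valued on all 32 arrays, which tests fewer genes, gave 1421 called at 30 min and 1254 late. SAM1, near 0 as deposited, turned to 0.07 with the random block, 0.28 with the fixed block, and lay between -0.6 and 0.28 without 1 array: 0.24 without 30 min replicate 2, 0.28 without 45 min replicate 1 and 0.08 without 45 min replicate 2.

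Leaving out 1 array at a time gave 198 to 867 called in late minus 30 min, 162 to 736 returned, 110 to 209 held, 31 to 92 first changed late, 68 to 383 in 45 min minus 30 min, 1768 to 2514 at 30 min and 1425 to 2159 late. An arm left with 1 array is assumed to vary like the other groups. Of 83 named genes called, 35 stayed called without any 1 array, and 39 were lost without 30 min replicate 1. The 30 and 45 min arrays share replicate numbers, and their deviations correlated at 0.461 over genes in 2 pairs; the number as a block gave 409 genes in 45 min minus 30 min against 383 without it. Centring and robust moderation moved no call of the 98 named genes across the threshold.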
